A study of Mus musculus with 12 samples.

Results

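The genes described here are 8 genes of the sebaceous gland, Scd1, Scd3, Elovl3, Mc5r, Awat2, Far2, Cidea and Fa2h. They were taken by symbol from tables that list 55487 genes each, and all 8 were present. Their RNA was measured by RNA-seq in 12 libraries of skin wounds, 3 in each of 4 groups. Wounds were made by punch biopsy (6 mm in diameter, 2 per mouse, through the full thickness of the back skin) in male C57BL/6JNarl mice aged 6 weeks. The sham group received Pluronic F127 gel once a day and the CAP group received the same gel with 10 µM capsaicin (CAP), the pungent component of chili peppers, so both groups carried the gel. Wounds were collected at day 3 or day 6 together with the skin around them. Values are TPM (a gene's share of the transcripts of its library, corrected for transcript length) as the authors deposited them. The number of reads behind a value is unknown, 0.0001 TPM stands in for 0, and no source used here says whether some libraries came from 1 mouse. Hence n is the number of libraries, and p values measure the spread between libraries, which may in part be technical. Each library had 18533 to 19325 genes at 0.3 TPM or more, and libraries of a group correlated across genes at r = 0.956 to 0.975.

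Sebaceous glands open into the hair follicle. Their cells, the sebocytes, fill with lipid droplets and then burst, and the released lipid is sebum, a mixture that in mice is rich in wax esters, diol esters, sterol esters and triglycerides. The members stand at successive steps of this work. Scd1 and Scd3 encode stearoyl-CoA desaturases, which put a double bond into saturated fatty acids, and Elovl3 encodes an elongase of very long chain fatty acids. Far2 encodes a fatty acyl-CoA reductase, which makes fatty alcohols, and Awat2 encodes an acyltransferase that joins such alcohols to fatty acids to form wax esters. Fa2h encodes fatty acid 2-hydroxylase, Cidea a protein of the lipid droplet surface, and Mc5r the melanocortin receptor of exocrine glands. Several of them are also known from other cells: Scd1 from white fat, Cidea and Elovl3 from brown fat, and Fa2h from myelinating Schwann cells.

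Positions are on the mouse build GRCm38, and the coordinates in the tables equal those of GENCODE M21 for all 8 genes, each annotated as protein coding. Scd1 (ENSMUSG00000037071, chr19:44394455-44407879, minus strand) and Scd3 (ENSMUSG00000025202, chr19:44203269-44244016, plus strand) are the outer genes of a cluster of 4 Scd genes that spans 204.6 kb. Elovl3 (ENSMUSG00000038754, chr19:46131897-46135694, plus strand) lies 1.72 Mb beyond the cluster. Far2 (ENSMUSG00000030303, chr6:148047259-148182758, plus strand), Fa2h (ENSMUSG00000033579, chr8:111345135-111393824, minus strand) and Awat2 (ENSMUSG00000031220, chrX:100402221-100442717, minus strand) lie on other chromosomes.

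The desaturase pair is shown in sequence because reads have to be divided between both genes. The coding sequences of Scd1 (1068 bases) and Scd3 (1080 bases) align over 1068 bases, of which 91.5% are identical, and the longest run that they share is 185 bases. Within the longest part that aligns without a gap, the 90 coding bases in which the genes differ most were sought. They are bases 292 to 381 of Scd1 and 304 to 393 of Scd3, counted from the first base of the start codon. The 20 differing bases are in capitals (GENCODE M21 transcripts, written 5′ to 3′).
Scd1: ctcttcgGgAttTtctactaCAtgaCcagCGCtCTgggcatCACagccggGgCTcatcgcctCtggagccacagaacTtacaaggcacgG
Scd3: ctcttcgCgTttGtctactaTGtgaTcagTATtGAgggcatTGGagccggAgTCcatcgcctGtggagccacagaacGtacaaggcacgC
Of all 31-base stretches in its transcripts, Scd3 shares 15.2% with other genes (8.12% with Scd1 itself), and Scd1 shares 8.18%. The division of reads between Scd1 and Scd3 is therefore uncertain, and Scd1 was 51.3 to 316 times as abundant as Scd3 within a library. Far2 shares 11.9%, of which 10.8% with Ergic2, a gene that overlaps its end on the other strand and stood at 22.6 to 38.9 TPM. No source used here states how strand was treated, and the r of Far2 with Ergic2 over the 12 libraries was −0.07. Awat2 shares 1.55% and Mc5r 0.052%, and Elovl3, Cidea and Fa2h share none. On the other strand, Elovl3 is overlapped by Pitx3 (0.0001 to 1.77 TPM, r = −0.19), Awat2 by Otud6a (at most 0.0788 TPM), Cidea by B430212C06Rik (at most 0.420 TPM, r = 0.68 with Cidea over 12 libraries) and Scd3 by AC125101.1. These r values describe 12 libraries with a common group structure and were not tested.

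Windows of 250 bases before the start site were matched for 3 of the 8 members (Far2, Scd3 and Awat2) in RefSeq, build GRCm38.p6. They are shown for Scd3, which moved with 3 other members from library to library, and for Awat2, which did not. In capitals is a CCAAT box (CCAAT on either strand), found 85 bases before the start of Awat2.
Scd3, chr19:44203038-44203287, plus strand: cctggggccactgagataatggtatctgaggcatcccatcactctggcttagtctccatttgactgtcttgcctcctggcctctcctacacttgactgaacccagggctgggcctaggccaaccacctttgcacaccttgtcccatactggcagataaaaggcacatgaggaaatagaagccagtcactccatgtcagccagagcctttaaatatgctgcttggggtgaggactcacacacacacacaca
Awat2, chrX:100442718-100442967, minus strand: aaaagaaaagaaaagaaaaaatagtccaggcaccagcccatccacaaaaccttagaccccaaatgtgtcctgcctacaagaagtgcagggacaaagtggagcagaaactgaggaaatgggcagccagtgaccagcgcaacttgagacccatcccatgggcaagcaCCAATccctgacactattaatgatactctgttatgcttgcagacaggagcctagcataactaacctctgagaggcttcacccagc
A CCAAT box occurs in 33.85% of the 32851 windows in the RefSeq table. The window of Scd3 held none of the 6 motifs that were searched on both strands, which besides CCAAT were AGGTCA (in 14.02% of all windows), TCACNCCAC (1.05%), GGGCGG (32.74%), TATAAA (12.37%) and CACGTG (6.02%). The window of Far2 held GGGCGG at 126 and 56 bases before its start on the minus strand, and a further window of Awat2, before its other start, held CCAAT at 121 and GGGCGG at 70 bases. Start sites here are those of RefSeq. The windows of Far2 (chr6:148047166-148047415) and Scd3 run past the first base of these genes in GENCODE M21 (148047259 and 44203269). Both RefSeq starts thus lie inside the genes as placed above. A match describes the letters of a window and not a site in use.

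Scd1 was by far the most abundant member, with 141 TPM on average over the 12 libraries and 81.2 TPM in its lowest. It was followed by Cidea (6.00 TPM), Fa2h (4.99), Far2 (2.20), Scd3 (1.07), Elovl3 (0.861), Awat2 (0.389) and Mc5r (0.190), all as means of TPM. Scd1 alone had a range that did not overlap that of the next gene. Fa2h was above Far2, and Far2 above Scd3, in 12 of 12 libraries, while Cidea was above Fa2h in 7, Scd3 above Elovl3 in 8, Elovl3 above Awat2 in 9 and Awat2 above Mc5r in 8. The label was thus met unevenly: the desaturase Scd1, which is also known from white fat, was high, and Scd3, Elovl3, Awat2 and Mc5r were below 2 TPM in every library except sham replicate 2 at day 3, with 2.28 TPM of Scd3. In the genome, Cidea (ENSMUSG00000024526, chr18:67343604-67367785) and Mc5r (ENSMUSG00000007480, chr18:68337596-68342446) lie on the plus strand of chromosome 18.

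**Figure D1:**
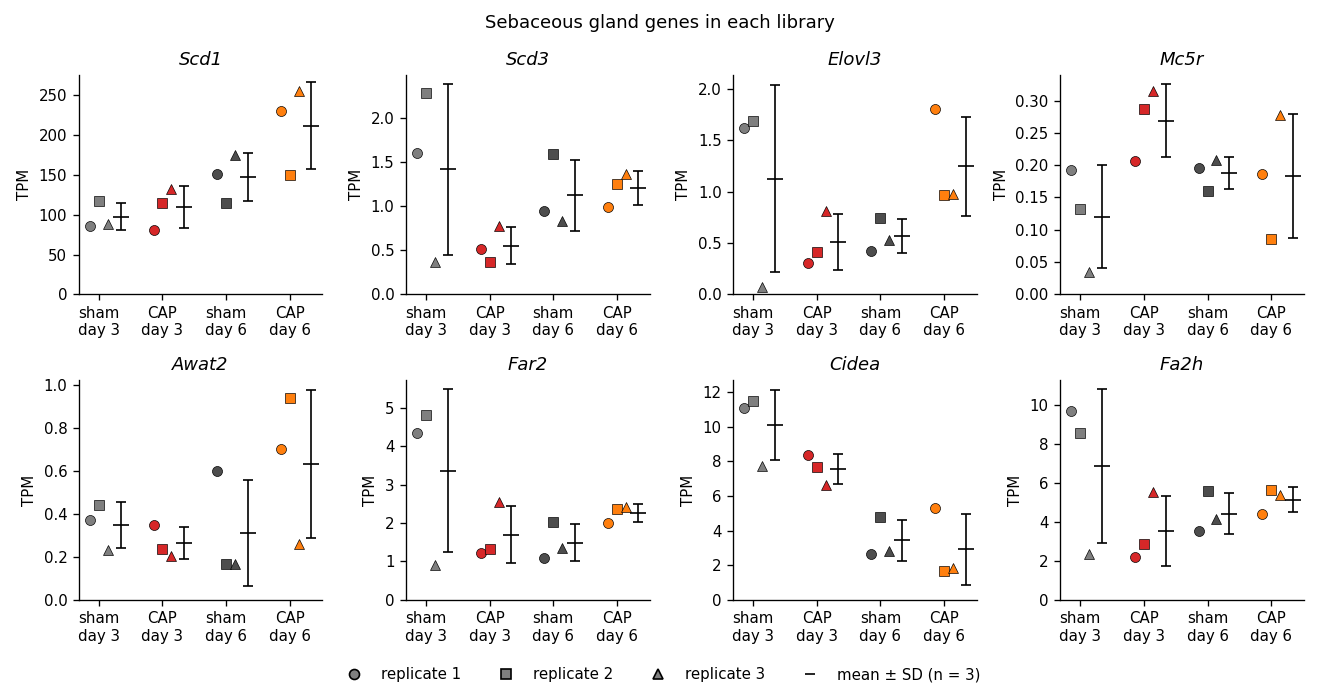
TPM (vertical axes, each from 0) of the 8 sebaceous gland genes in the 12 libraries, by group; the shape of a point gives the replicate number, and the bar beside each group is the mean ± SD (n = 3). Scd1 reaches 255 TPM in the CAP group at day 6, Cidea is lower at day 6 than at day 3, and Scd3, Elovl3, Far2 and Fa2h are low in sham replicate 3 at day 3.

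The first comparison, CAP against sham at day 3, asks whether the gel with capsaicin changed these genes early in healing. The desaturase Scd1 stood at 86.4, 117 and 88.8 TPM in the sham group and at 81.2, 115 and 133 TPM in the CAP group. The groups overlapped (log2 difference 0.16, standard error 0.21). Scd3 stood at 1.60, 2.28 and 0.364 TPM in the sham group and at 0.515, 0.364 and 0.777 TPM in the CAP group. Sham replicates 1 and 2 were above every CAP library and sham replicate 3 was level with the lowest, and the log2 difference of −0.97 had a 95% interval from −2.49 to 0.55.

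Elovl3, the elongase, showed the same division. Its levels were 1.62, 1.68 and 0.0721 TPM in the sham group and 0.304, 0.408 and 0.813 TPM in the CAP group, a log2 difference of −0.50 (standard error 0.94). Far2, the reductase that supplies wax alcohols, stood at 4.35, 4.82 and 0.918 TPM in the sham group and at 1.22, 1.33 and 2.56 TPM in the CAP group (−0.72, standard error 0.64). For both genes sham replicate 3 was the lowest of the 12 libraries. Fa2h had 9.71, 8.56 and 2.34 TPM in the sham group and 2.19, 2.86 and 5.56 TPM in the CAP group (−0.81, standard error 0.59). Cidea stood at 11.1, 11.5 and 7.75 TPM in the sham group and at 8.34, 7.67 and 6.64 TPM in the CAP group, where the groups overlapped by 1 library (−0.40, standard error 0.18, unadjusted p = 0.0693 from limma).

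Of the 6 members that passed the filter (an average of 0.3 TPM or more in each group compared), 0 passed the threshold of an unadjusted p under 0.05 in limma and at least 2-fold, and 0 had an unadjusted p under 0.05. Over all 18330 genes tested, 1.58% passed the threshold and 6.6% had such a p. The adjusted p of the members lay between 0.792 and 0.985 (limma, Benjamini-Hochberg). None of the 6 had groups without overlap, which 11.6% of all genes had. The median log2 difference of the 6 members was −0.61, beside −0.05 over all genes. Awat2, the wax ester enzyme, and Mc5r did not pass the filter. Awat2 stood at 0.370, 0.443 and 0.230 TPM in the sham group and at 0.349, 0.238 and 0.206 TPM in the CAP group. Mc5r stood at 0.193, 0.133 and 0.0350 TPM in the sham group and at 0.206, 0.286 and 0.315 TPM in the CAP group, a log2 difference of 0.80. Every CAP library was above every sham library for Mc5r, with the smallest p of 0.1 that an exact permutation test of 3 against 3 allows, and without the filter 0 of the 8 members passed the threshold in limma.

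The unadjusted calls of this comparison hung on a single library. In sham replicate 3, Fa2h was 4.15-fold, Far2 5.25-fold, Scd3 6.25-fold and Elovl3 23.4-fold below the highest library of the group, whereas Scd1 was 1.35-fold and Cidea 1.48-fold apart from lowest to highest. Mc5r (5.53-fold) and Awat2 (1.93-fold), under the filter, were also lowest of their group in sham replicate 3. Without that library, Scd3 (−1.67), Elovl3 (−1.61), Far2 (−1.45) and Fa2h (−1.45) passed the unadjusted threshold, 4 of the 6 members beside 1.53% of all genes, with unadjusted p from 0.0064 to 0.0117 and an adjusted p of 1 for each in limma. Elovl3 turned to 0.05 without sham replicate 1 and to 0.07 without sham replicate 2. The sum of the interfollicular keratinocyte markers did not set this library apart (43417 TPM, beside 32923 and 54043 TPM in the others). The sum of the hair follicle markers was 38.4 TPM there, beside 31.9 and 22.7 TPM. Of the 17 genes on that list, 7 were highest and 1 lowest in sham replicate 3, ties not counted. The others lay between the other libraries of the group or were tied at the stand-in for 0. Among the 7 are inner root sheath keratins of the growing hair follicle: Krt71 stood at 4.50 TPM and Krt25 at 1.33 TPM in sham replicate 3 and at the stand-in for 0 in both others. CAP replicate 3 of the same day also held them (Krt71 at 5.68 TPM and Krt25 at 4.17 TPM), and there Scd3, Elovl3, Far2 and Fa2h were the highest of their group. The sham group at day 6 showed the reverse, with Krt71 at 20.3, 0.0001 and 7.75 TPM and Krt25 at 14.7, 0.0001 and 4.67 TPM. Of that group, replicate 1 was lowest and replicate 2 highest for Elovl3, Far2 and Fa2h. For Scd3, replicate 3 was lowest and replicate 2 highest. The part of hair follicle content in the levels of the members was not tested, and in bulk tissue fewer sebocytes and less RNA per sebocyte cannot be told apart.

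At day 6 the same question was asked of the later wound. Elovl3 was higher in every CAP library than in every sham library. It stood at 1.80, 0.963 and 0.974 TPM in the CAP group and at 0.422, 0.746 and 0.525 TPM in the sham group. The log2 difference of 0.99 (standard error 0.37, 95% interval from 0.11 to 1.87) was just short of 2-fold, with an unadjusted p of 0.0321 and an adjusted p of 0.236 in limma and an exact permutation p of 0.1. It was the only member of 7 tested whose groups did not overlap in either direction. Of all genes, 8.01% were higher and 18% lower without overlap. At the threshold, 0 of the 7 members passed in limma, where 3.8% of all 18323 genes did, and Elovl3 was the 1 of 7 with an unadjusted p under 0.05, which 19.2% of all genes had.

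Over all genes the median log2 difference at day 6 was −0.12, and −0.01 after median-ratio scaling of the libraries. Relative to that shift Elovl3 was higher by 1.09 and passed the threshold, as it did with quantile normalization (1.15) and with a pseudocount of 0.01 TPM (1.10), at adjusted p values from 0.214 to 0.241 in limma. It also passed when sham replicate 2 (1.18), CAP replicate 2 (1.13) or CAP replicate 3 (1.13) was left out, and its lowest value with a library left out was 0.71, without CAP replicate 1. With a pseudocount of 1 TPM the difference was 0.51, and the unadjusted p from limma was 0.0652 with the replicate number as a block and 0.224 in the joint fit of 12 libraries. It passed the threshold in 6 of 13 alternatives, over which its adjusted p lay between 0.149 and 0.478.

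The other members were not separated by treatment at day 6. Scd1 stood at 150, 115 and 175 TPM in the sham group and at 230, 150 and 255 TPM in the CAP group, so that 2 of 3 CAP libraries were above every sham library (log2 difference 0.51, standard error 0.24, unadjusted p = 0.067 from limma). Far2 stood at 1.08, 2.03 and 1.35 TPM in the sham group and at 1.99, 2.38 and 2.43 TPM in the CAP group (0.61, standard error 0.28, unadjusted p = 0.0672 from limma). Here only CAP replicate 1 fell within the range of the sham group. Awat2 stood at 0.599, 0.168 and 0.167 TPM in the sham group and at 0.701, 0.940 and 0.262 TPM in the CAP group (0.86, standard error 0.60). Each group held both high and low libraries, so its interval ran from −0.55 to 2.28.

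Scd3 at day 6 stood at 0.939, 1.59 and 0.835 TPM in the sham group and at 0.990, 1.25 and 1.36 TPM in the CAP group (log2 difference 0.13, 95% interval from −0.63 to 0.90). Fa2h stood at 3.52, 5.57 and 4.15 TPM in the sham group and at 4.41, 5.66 and 5.36 TPM in the CAP group (0.23, from −0.28 to 0.75). These intervals leave out a 2-fold change of either gene in either direction, which those of day 3 did not. Cidea stood at 2.65, 4.81 and 2.83 TPM in the sham group and at 5.28, 1.66 and 1.81 TPM in the CAP group (−0.38, from −1.49 to 0.74), with CAP replicate 1 above and both other CAP libraries below the sham group. Mc5r, under the filter, stood at 0.196, 0.160 and 0.207 TPM in the sham group and at 0.186, 0.0865 and 0.277 TPM in the CAP group. The median log2 difference of the 7 tested members was 0.51.

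**Figure D2:**
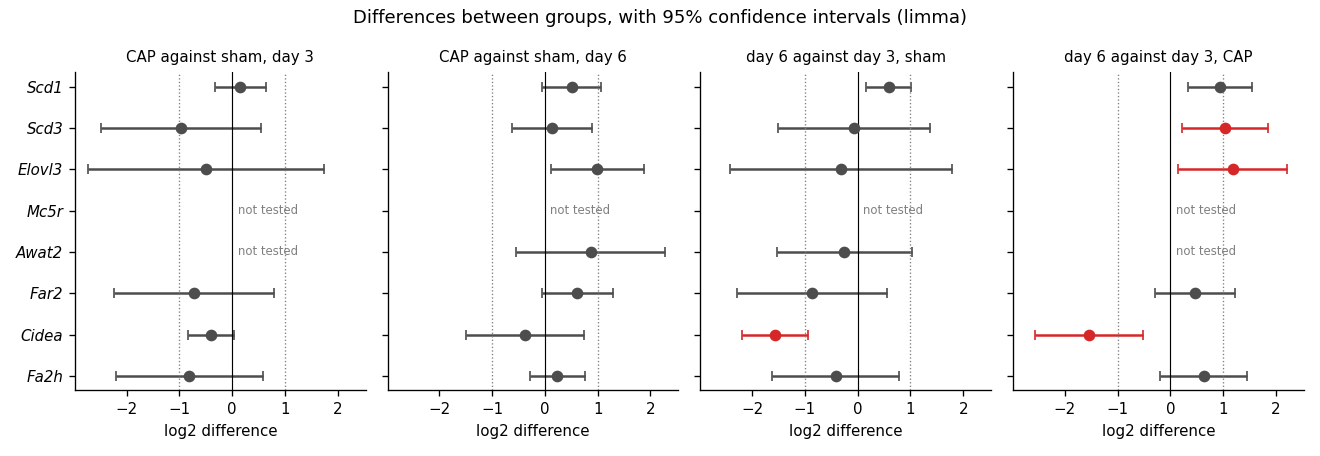
Log2 difference on the scale log2(TPM + 0.1) with its 95% confidence interval from limma (horizontal axes) for each member that passed the filter, in 4 comparisons of 3 libraries with 3; red points passed the threshold, and dotted lines mark a 2-fold change. No member is red in either comparison of CAP with sham, and Cidea lies left of −1 in both comparisons of the days.

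Cidea was the 1 member past the threshold between the days in both treatments. It fell by 1.56 on the log2 scale from day 3 to day 6 in the sham group (standard error 0.27, 95% interval from −2.18 to −0.94, unadjusted p = 0.000547 and adjusted p = 0.0361 from limma). Its mean went from 10.1 ± 2.04 to 3.43 ± 1.20 TPM (mean ± SD of 3 libraries), and every day 6 library was below every day 3 library. It was 1 of 7 tested members past the threshold downwards, where 1.61% of all 18368 genes were, and 10.6% of all genes were lower without overlap. In the CAP group it fell by 1.54 (standard error 0.43, unadjusted p = 0.00974 and adjusted p = 0.32 from limma), from 7.55 ± 0.858 to 2.91 ± 2.05 TPM (mean ± SD of 3 libraries), again without overlap.

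The fall of Cidea passed the unadjusted threshold in 13 of 13 alternatives in either treatment. In the sham group its adjusted p was under 0.05 in 6 of these 13, over a range from 0.0321 to 0.172. In the CAP group the adjusted p lay between 0.112 and 0.722. The fall did not differ between the treatments beyond its error: the difference of both was 0.02, with a 95% interval from −1.19 to 1.23. Cidec, the related lipid droplet gene of white fat, stood at 18.7 to 74.1 TPM and had a log2 difference of −0.25 between the days in the sham group and 0.48 in the CAP group, neither past the threshold. Of the brown fat markers, Ucp1 was at most 0.149 TPM in any library, and the sum over the 5 genes of that list was 33.6 to 44.2 TPM at day 3 and 25.1 to 30.6 TPM at day 6 in the sham group, and 21.3 to 41.2 TPM and 18.3 to 31.8 TPM in the CAP group.

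In the CAP group the desaturases and the elongase were higher at day 6 than at day 3. By limma, Scd3 rose by 1.03 on the log2 scale (standard error 0.34, unadjusted p = 0.0201), going from 0.552 ± 0.209 to 1.20 ± 0.191 TPM (mean ± SD of 3 libraries). Elovl3 rose by 1.18 (standard error 0.43, with limma's unadjusted p at 0.0306), going from 0.508 ± 0.269 to 1.25 ± 0.481 TPM (mean ± SD of 3 libraries). These are 2 of 6 tested members past the threshold upwards, beside 1.27% of all 18202 genes, and Cidea was 1 of 6 downwards, beside 1.52%. Scd1 was higher by 0.94 (standard error 0.26, unadjusted p = 0.00843 from limma), from 110 ± 26.1 to 212 ± 54.7 TPM (mean ± SD of 3 libraries), just under 2-fold.

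Scd1, Scd3 and Elovl3 did not overlap between the days in the CAP group, 3 of 6 members against 8.05% of all genes, and Cidea was 1 of 6 lower without overlap against 9.63%. The adjusted p of these genes lay between 0.316 and 0.386 in limma. With a pseudocount of 1 TPM the differences of Scd3 and Elovl3 shrank to 0.51 and 0.57, and in a joint fit of all 12 libraries their unadjusted p was 0.0787 and 0.155, so both calls were lost. Without CAP replicate 2 of day 3 Cidea alone passed, and without CAP replicate 3 of day 3 there were 5 members past the threshold, Scd1 and Fa2h among them. Far2 (0.47, standard error 0.32) and Fa2h (0.63, standard error 0.34) did not pass in the full set.

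Between the days in the sham group, Scd1 differed by 0.58 on the log2 scale (standard error 0.18, unadjusted p = 0.0136 and adjusted p = 0.17 from limma), under 2-fold, with groups that overlapped by 1 library. Scd3 (−0.07), Elovl3 (−0.31), Awat2 (−0.25), Far2 (−0.87) and Fa2h (−0.42) had standard errors from 0.51 to 0.89, and none passed. Without sham replicate 3 of day 3, Elovl3 (−1.43), Far2 (−1.60) and Fa2h (−1.06) passed the threshold beside Cidea, 4 of 7 members beside 3.82% of all genes. This comparison shares the 3 sham libraries of day 3 with the comparison of CAP and sham at that day, so the same library moved both.

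The difference between the CAP effects of the days was tested as an interaction. In 7 of 7 tested members the log2 difference between CAP and sham was larger at day 6 than at day 3, by 0.02 for Cidea (whose sign turned with some libraries left out), 0.36 for Scd1, 1.05 for Fa2h, 1.10 for Scd3, 1.15 for Awat2, 1.33 for Far2 and 1.49 for Elovl3. None passed the threshold, against 4.9% of all 20267 genes, and the unadjusted p from limma lay between 0.104 and 0.971. The median over the members was 1.10 and over all genes −0.06. A larger difference at day 6 was not particular to the members. It was also seen in 12 of 12 interfollicular keratinocyte markers (median 0.88), with 3 past the threshold upwards, beside 2.18% of all genes. White adipocyte markers had 8 of 12 larger and 4 smaller (median 0.47). It was smaller in 13 of 14 hair follicle markers and in 7 of 8 leukocyte markers. Without sham replicate 3 of day 3, Scd3 (1.80), Elovl3 (2.61), Far2 (2.07) and Fa2h (1.68) passed, 4 of 7 beside 4.39% of all genes, with an adjusted p of 0.589 for each. The members are not independent of each other.

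Scd3, Elovl3, Far2 and Fa2h moved together from library to library. Over the 12 libraries the 6 pairs among them had Pearson's r from 0.81 to 0.94 and Spearman's rho from 0.77 to 0.90. Their adjusted permutation p lay between 0.00084 and 0.00761 for r and between 0.0056 and 0.0249 for rho, over 28 pairs of members. Libraries were permuted without regard to group, so these p values can also reflect differences between the groups. For each pair, r was also computed without the 2 libraries farthest from the median of its first gene, in the order given here. It was then 0.71 to 0.88. The libraries left out differed between pairs. For Far2 and Fa2h they were sham replicates 1 and 2 of day 3, so sham replicate 3 was kept. For deviations from the group means, which remove treatment and day, it was 0.87 to 0.98. These deviations were largest in the sham group at day 3. There the 4 genes varied 4.15- to 23.4-fold, beside 1.22- to 2.68-fold in the other groups. The r of the deviations therefore rests largely on that group, and it was not computed with libraries left out. The closest pair was Far2 and Fa2h, enzymes that act on different fatty acid products, with r = 0.94 (adjusted permutation p = 0.00084). Fa2h was 1.78 to 3.26 times as abundant as Far2 in every library, although Far2 itself varied 5.25-fold.

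**Figure D3:**
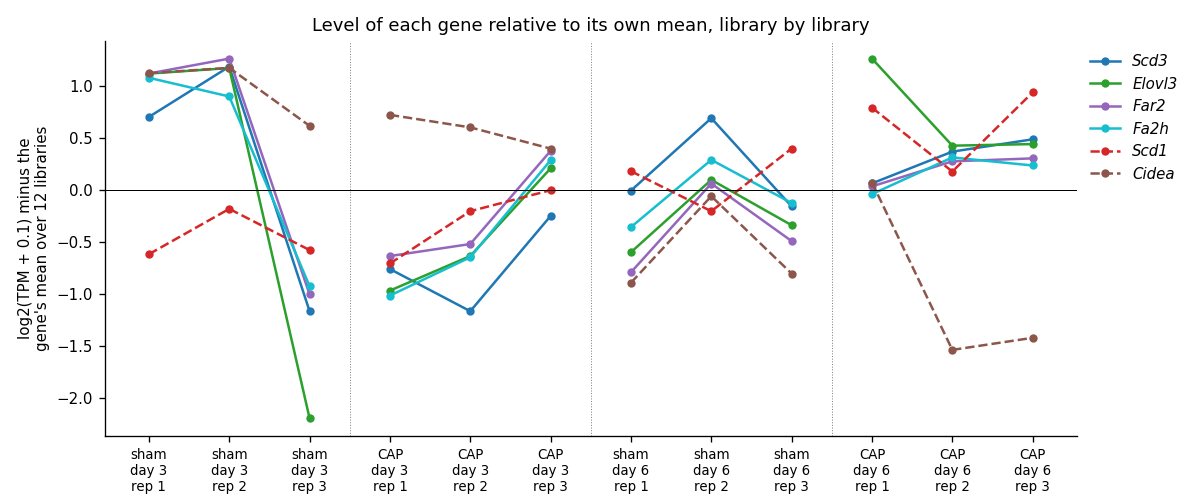
Level of 6 members in each library, as log2(TPM + 0.1) minus the gene's own mean over 12 libraries (vertical axis), with lines that join libraries of a group only as a guide. The solid lines (Scd3, Elovl3, Far2 and Fa2h) fall together in sham replicate 3 at day 3, while the dashed lines (Scd1 and Cidea) follow the day.

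The other members did not belong to this group. The remaining 22 pairs had r from −0.71 to 0.41. Scd1, although a sister of Scd3 in sequence and place, had r = 0.27 with it, and their ratio rose from 51.3 in sham replicate 2 of day 3 to 316 in CAP replicate 2 of the same day. Scd1 and Cidea ran in opposite directions over the libraries (r = −0.71, rho = −0.71, adjusted permutation p = 0.0416 and 0.0484). Without the 2 libraries farthest from the median of Scd1, r was −0.78. Within groups this relation did not hold (r of the deviations 0.00). For Mc5r, r of the deviations with Scd3, Elovl3, Far2 and Fa2h was 0.54 to 0.68, but over the 12 libraries as such it was 0.02 to 0.32. Elovl3 also left the group in sham replicate 3 of day 3 in degree, where Fa2h was 32.5 times as abundant as Elovl3, beside 2.45 to 8.34 times in the other libraries.

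**Figure D4:**
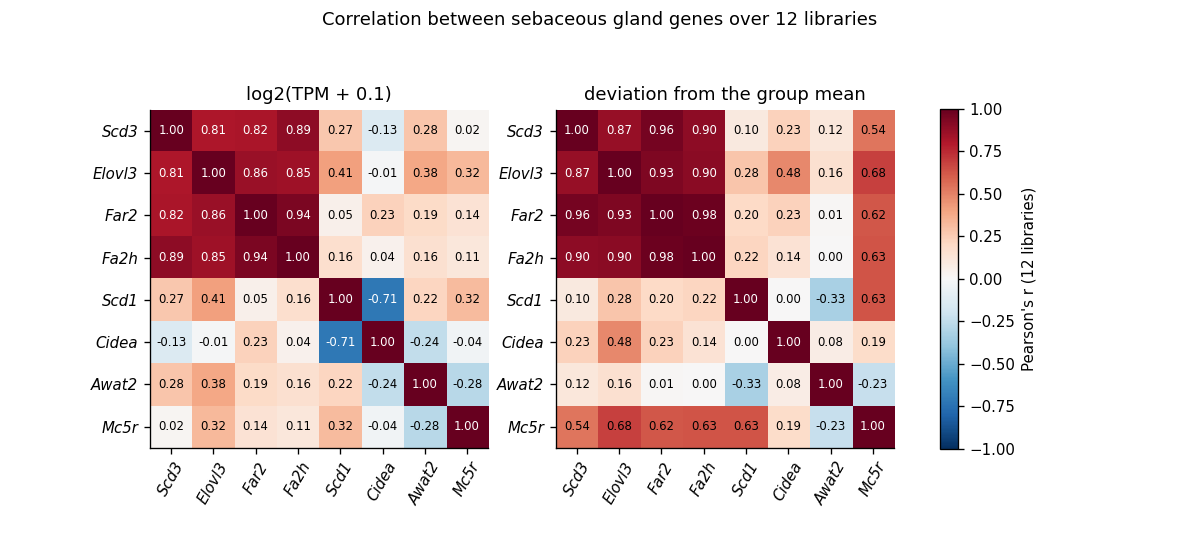
Pearson's r between each pair of members over 12 libraries, for log2(TPM + 0.1) on the left and for deviations from the group mean on the right; colour runs from −1 (blue) to 1 (red). The block of Scd3, Elovl3, Far2 and Fa2h stands at 0.81 to 0.94 on the left and at 0.87 to 0.98 on the right, and the pair of Scd1 and Cidea goes from −0.71 to 0.00.

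The genes outside the list whose level was most like the mean of the members were sought among 16164 genes that averaged 1 TPM or more. Over the 12 libraries the highest r were those of Serpina3j (0.84), Jade3 (0.80), Dusp11 (0.76) and Gm6421 (0.75). They were followed by Gm44758, Gm22581, Gm45855, Nsa2-ps1, Mir7060 and Rpl7-ps7, from 0.75 to 0.73. None of the 10 is on a gene list used here, and the r values describe 12 libraries without a test.

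Other genes of the gland and of lipid synthesis did not follow the members as a list. Of 16 further sebaceous gland genes 14 were tested, and 1 passed the threshold at day 3, upwards, beside 0.426% of all genes. It was Plin2, which coats lipid droplets in many cell types (1.18, unadjusted p = 0.0399 from limma). The median of the 14 was 0.08. At day 6, 0 of the 14 passed, 5 of the 14 had an unadjusted p under 0.05 in limma, beside 19.2% of all genes, and their median was 0.02. Awat1, the wax alcohol acyltransferase next of kin to Awat2, stood at 0.362 to 1.25 TPM and had a log2 difference of −0.58 at day 3 and 0.48 at day 6, neither past the threshold. In the sham group at day 3 it stood at 0.839, 1.25 and 0.362 TPM. Replicate 3 of that group was thus its lowest of 12 libraries, as for Scd3, Elovl3 and Far2. Whether Awat1 moved with these members was not tested. In the interaction 3 of the 14 passed downwards, beside 2.73% of all genes. They were Plin2 (−2.12), Soat1 (−1.28), which esterifies cholesterol, and Plin5 (−1.12), another lipid droplet coat gene.

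Fatty acid and lipid synthesis genes were split at day 6. Of 27 genes 23 were tested, 13 were higher and 10 lower in the CAP group, and 13 of the 23 had an unadjusted p under 0.05 in limma, beside 19.2% of all genes. The elongase Elovl7 alone passed the threshold upwards (1.04, standard error 0.24, adjusted p = 0.205 from limma), beside 1.46% of all genes. The elongases Elovl4 (0.90) and Elovl6 (0.61) were higher without overlap between the groups and under 2-fold, and the reductase Far1, the close relative of Far2, was lower without overlap (−0.45). Over all genes, 8.01% were higher and 18% lower without overlap. Scd2, the desaturase next to Scd3 in the cluster, stood at 91.4 to 138 TPM and had a log2 difference of 0.05, while Scd4 was at most 0.431 TPM in any library. At day 3, 0 of the 23 passed and 3 had an unadjusted p under 0.05 in limma, beside 6.6% of all genes. Of the 6 tested relatives of Cidea and partners of Fa2h, 0 passed in any of the 5 comparisons, and at most 2 had an unadjusted p under 0.05 in limma, a share of 6.6% to 19.2% over all genes.

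The melanocortin list, which holds the ligands and relatives of Mc5r, was sparse in these wounds. Of 9 genes 8 were in the tables, and Mc3r and Mrap2 were at the stand-in for 0 in all 12 libraries. Mc1r, the pigment cell receptor, was at most 0.1 TPM. Agrp, which encodes an antagonist of melanocortin receptors in the brain, was higher in the CAP group at day 6 by 1.20 (adjusted p = 0.234 from limma). It stood at 3.39, 2.48 and 1.5 TPM in the CAP group and at 1.45, 1.14 and 0.513 TPM in the sham group. Agrp was 1 of 2 tested genes past the threshold upwards, beside 1.46% of all genes.

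**Figure D5:**
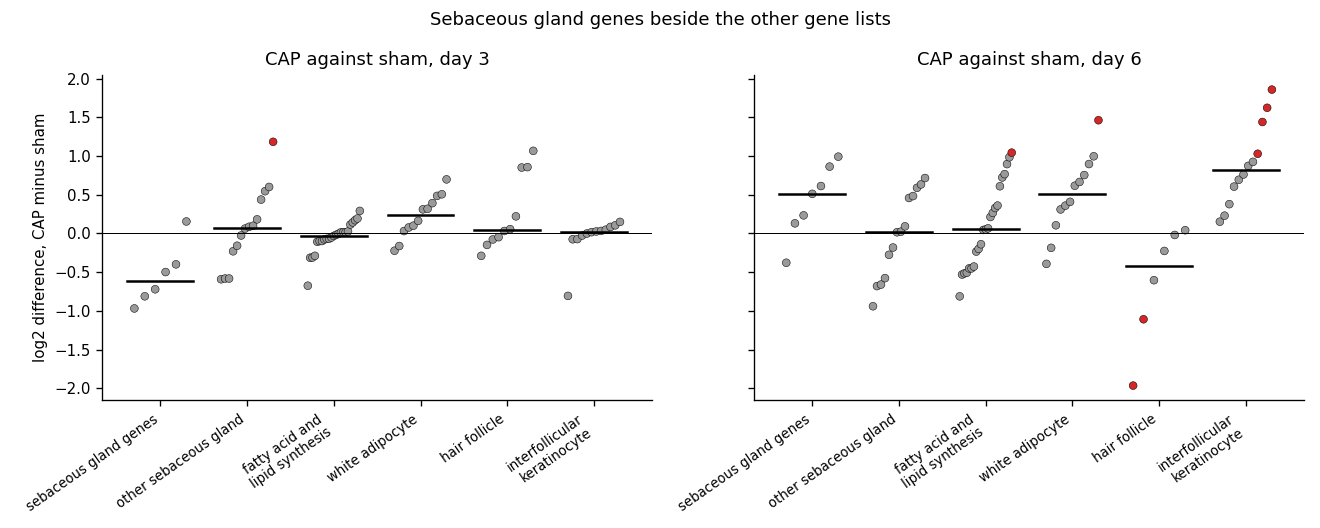
Log2 difference between CAP and sham (vertical axis) at day 3 and day 6 for each tested gene of 6 lists, with a black line at the median of a list and red points past the threshold. At day 3 the members have a median of −0.61 and the keratinocyte markers 0.02, and at day 6 these are 0.51 and 0.82.

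Markers of other skin cells moved at day 6 as well. Of 12 interfollicular keratinocyte markers, 12 were higher in the CAP group, by 0.15 to 1.86 with a median of 0.82. Of these, 4 passed the threshold upwards, where 1.46% of all genes did. They were Krt1 (1.86), Krt10 (1.62), Lor (1.44) and Ivl (1.03), genes of differentiating epidermis. Their summed level was 32154 to 35774 TPM in the sham group and 53893 to 112310 TPM in the CAP group. Krt5 (0.61) and Krt14 (0.38), which mark basal keratinocytes, did not pass. White adipocyte markers had a median of 0.51, with 10 of 12 higher and Lep (1.46) past the threshold, and Adipoq and Plin1 stood at 11.3 to 49.4 TPM and 8.39 to 47.4 TPM over all libraries. The sum of that list overlapped between the groups at day 6 (903 to 1431 TPM in the sham group and 1269 to 1750 TPM in the CAP group).

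Hair follicle markers had a median of −0.41 at day 6 over 6 tested genes of 17, with Tchh (−1.96) and Krt75 (−1.11) past the threshold downwards, beside 2.34% of all genes. Their sum was 39.8 to 115 TPM in the sham group and 12.3 to 20.6 TPM in the CAP group, and Krt71 and Krt25 were at the stand-in for 0 in at least 1 library of each of the 4 groups. Leukocyte markers were lower in 8 of 8 at day 6 (median −0.67), with Itgam (−1.04) past the threshold, beside the same 2.34% of all genes. Markers of Schwann cells, which also express Fa2h, were lower in 8 of 8 at day 6 (median −0.45), with 0 past the threshold and 2 of 8 at an unadjusted p under 0.05 in limma, beside 19.2% of all genes. At day 3 they were lower in 7 of 8 (median −0.42), and 1 passed the threshold downwards, beside 1.16% of all genes. Of these 8, 3 had an unadjusted p under 0.05 in limma at day 3, beside 6.6%. Fa2h itself differed by −0.81 at day 3 and by 0.23 at day 6. The part of these cells in the values of the members was not tested.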

How the data were processed

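RNA of 12 skin wound libraries was sequenced by the authors with the SureSelect XT HS2 mRNA kit as paired-end reads. Reads were converted with bcl2fastq and trimmed with Trimmomatic 0.36, and mm10 is the build in the submitters' processing notes. Expression was estimated by the authors with StringTie, and they deposited TPM in 1 table per library. No source used here names the aligner, the annotation release or the handling of strand. TPM carries no read counts, so depth is unknown and precision comes from how far the 3 libraries of a group differ.

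Differences are on the scale log2(TPM + 0.1), which understates changes of genes near the filter. Genes that averaged 0.3 TPM or more in both groups (in at least 1 of 4 groups for the interaction) were fitted with a trend on intensity in limma 3.58.1 (R 4.3.3), and p values were adjusted over all genes tested (Benjamini-Hochberg). The threshold was an unadjusted p under 0.05 together with a 2-fold difference, after the study's own criteria. In all, 5 comparisons were made. Exact permutation tests over 3 against 3 libraries are 2-sided with a smallest p of 0.1. Correlations used 100000 permutations of the 12 libraries without regard to group, adjusted over 28 pairs. Python 3.11.15, numpy 2.4.6, pandas 2.3.3, scipy 1.17.1 and matplotlib 3.10.9 were used for the rest.

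The members, the 10 other gene lists and the alternatives were chosen with earlier results of these data known. Named are the 8 members, genes of other lists that passed the threshold, defining cell type genes, close relatives of members and the 10 most similar genes. Alternatives were pseudocounts of 1 and 0.01 TPM, no filter, median-ratio scaling, quantile normalization, the replicate number as a block, a joint fit, and each library left out in turn.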

Additional observations from a re-analysis of the deposited data

How the results depend on the processing

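Of 462 values of single members under an alternative, 414 kept their direction and their side of the threshold, 11 fell short of it, 22 newly passed it and 15 changed sign. All 15 changes of sign came from leaving out 1 library, and 0 of the 224 other alternatives changed a sign. The number of members past the threshold was 0 to 4 at day 3, 0 to 1 at day 6, 1 to 4 between the days in the sham group, 1 to 5 between the days in the CAP group and 0 to 4 in the interaction when each library was left out in turn. The 4 at day 3, in the sham group and in the interaction came without sham replicate 3 of day 3. In the interaction 1 member, Awat2, passed without sham replicate 1 of day 6 (1.61) or CAP replicate 3 of day 6 (1.60). At day 6, 1 member (Elovl3) passed under each of 3 settings, quantile normalization, median-ratio scaling and 0.01 TPM as the pseudocount. Between the days in the CAP group, 1 member in place of 3 passed with a pseudocount of 1 TPM and in the joint fit. The causes were not tested.

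With a library left out, the log2 difference of Elovl3 ran from −1.61 to 0.073 at day 3 and from −1.43 to 0.26 between the days in the sham group. That of Scd3 ran from −0.036 to 0.39 at day 6 and from −0.77 to 0.41 between the days in the sham group, and the interaction of Cidea from −0.50 to 0.31. Where a library was left out, its group held 2 libraries.

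The replicate numbers showed no clear pairing, although these values cannot say whether libraries shared a mouse. Deviations from the group means correlated at −0.11 to 0.20 for same-numbered libraries and at −0.19 to 0.17 for libraries of unlike number. With the replicate block, the members past the threshold were 0 at day 3, 0 at day 6, 1 between the days in the sham group, 2 in the CAP group and 0 in the interaction. The call lost was that of Elovl3 in the CAP group (unadjusted p = 0.0612 from limma).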
